A study of Mus musculus with 9 samples.

Results

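The genes described here are the amino acid transporters of HT22 cells, with the cystine/glutamate exchanger system xc- among them. They were chosen by name alone, as the protein-coding genes whose symbol puts them in solute carrier (SLC) family 1, 3, 6, 7, 36, 38 or 43, and 64 of the 54532 gene IDs matched. One of them, Slc7a6os, matches by name but is no transporter, and the 3 antisense genes with such a symbol were left out. HT22 is an immortalized line from mouse hippocampal neurons, of wild-type genotype according to the labels, and 9 RNA-seq libraries of it were compared. The 3 OGE libraries came from cells kept for 2 h without oxygen and glucose (OGD) and then for 24 h with oxygen and hiPS-MSC-EVs, the extracellular vesicles of mesenchymal stem cells made from human induced pluripotent stem cells. The 3 OGP libraries came from cells with the same 2 h of OGD and 24 h of reoxygenation but with PBS in place of the vesicles, and the 3 control libraries came from untreated cells. The methods give doses of vesicles for the cell assays and do not say which was used for the sequenced cells. The medium after OGD contained exosome-free serum, no serum or vesicles according to the methods and was the standard medium according to the labels, so that a difference in serum between OGE and OGP cells and the vesicles themselves cannot be told apart.

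Amino acids cross membranes through carriers that differ in what they take and in what drives them. System xc- is a pair of proteins, the light chain xCT (Slc7a11) and the heavy chain 4F2hc (Slc3a2), that brings cystine into the cell in exchange for glutamate. Cystine is reduced to cysteine, which is needed to make glutathione. HT22 cells are known for their death under high extracellular glutamate, which stops the exchanger and drains their glutathione, while their ionotropic glutamate receptors are of little account. Glutamate itself is cleared by the SLC1 carriers, and neutral and cationic amino acids enter through families 1, 6, 7, 36, 38 and 43.

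Expression is given in the deposited FPKM, a measure of fragments that is corrected for gene length and sequencing depth. These values rest on 15026700 to 17368049 reads in genes in the OGE libraries, 16259448 to 19476806 in the OGP libraries and 17069241 to 18506865 in the control libraries. Levels are relative to all RNA of a library, so a different make-up of the cells and a different amount of RNA per cell cannot be told apart. Libraries of a group correlated at 0.969 to 0.988 and those of different groups at 0.949 to 0.970 (Pearson's r across genes), so the ranges overlapped. Of 11 neuron markers only Tubb3, Eno2 and Map2 averaged at least 0.5 FPKM, while Dcx was at 0 in all 9 libraries and Rbfox3, Syp and Snap25 were at or near 0. Of 7 mesenchymal markers 6 reached that level, and their summed level was 410 to 488 FPKM in OGE, 464 to 532 FPKM in OGP and 701 to 1020 FPKM in control, with Col1a1 at 343 to 935 FPKM over the 9 libraries. The 11 neuron markers summed to 17.9 to 22.1 FPKM in OGE, 15.2 to 16.2 FPKM in OGP and 13.4 to 15.9 FPKM in control. The 6 microglia markers summed to 9.02 to 10.2 FPKM in OGE, 16.5 to 19.0 FPKM in OGP and 12.2 to 17.4 FPKM in control, with Tmem119 the only one above the minimum and Itgam at 0 in all 9 libraries. The part of these differences in the results below was not tested.

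A gene was tested where its mean over the 9 libraries was at least 0.5 FPKM, which 23 of the 64 genes reached. The test was limma on log2(FPKM + 0.5), on which scale all log2 fold changes are given, and a gene is said to have risen or fallen where it changed by 1.5-fold or more at an adjusted p of 0.05 or less. Adjusted p-values are over all 13245 genes tested. In OGP against control 4 of the 23 rose and 5 fell, which is 39.1% of them, where 12.1% of all genes tested were called (6.38% higher and 5.74% lower). Between OGE and OGP 4 rose and 1 fell in OGE, or 21.7%, beside 8.12% of all genes (3.39% higher and 4.73% lower). In OGE against control 3 rose and 1 fell, or 17.4%, beside 11.5% of all genes (5.14% higher and 6.33% lower). The median log2 fold change of the 23 was -0.01, 0.19 and 0.09 in these comparisons, and that of all genes tested lay between -0.003 and 0.006. Groups did not overlap for 69.6%, 65.2% and 65.2% of the 23 in the same order, beside 42.9%, 45.4% and 38.2% of all genes tested. A lack of overlap was thus common among all genes. The other solute carriers, of which 137 of 292 were tested, had 6 genes higher and 10 lower in OGP against control (11.7%), 7 higher and 2 lower between OGE and OGP (6.57%), and 7 higher and 8 lower in OGE against control (10.9%). These shares are counts side by side, and their difference was not tested. The comparisons share libraries and are not independent of each other. Control replicate 1 and OGE replicate 3 stood apart from their groups in an earlier reading of these data. Without both of them the counts were 4 higher and 5 lower, 4 and 0, and 3 and 1. Slc1a3 was the gene no longer called in OGE against OGP (-0.56). The calls over all genes rose from 1605 to 1971, from 1075 to 1244 and from 1519 to 2263 in the same order. In all, 11 of the 23 genes were called in at least 1 comparison and 12 in none. Summed over the 64 genes, the level was 466 ± 10.7 FPKM (SD, n = 3) in OGE, 446 ± 29.6 FPKM in OGP and 438 ± 8.60 FPKM in control.

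**Figure D1:**
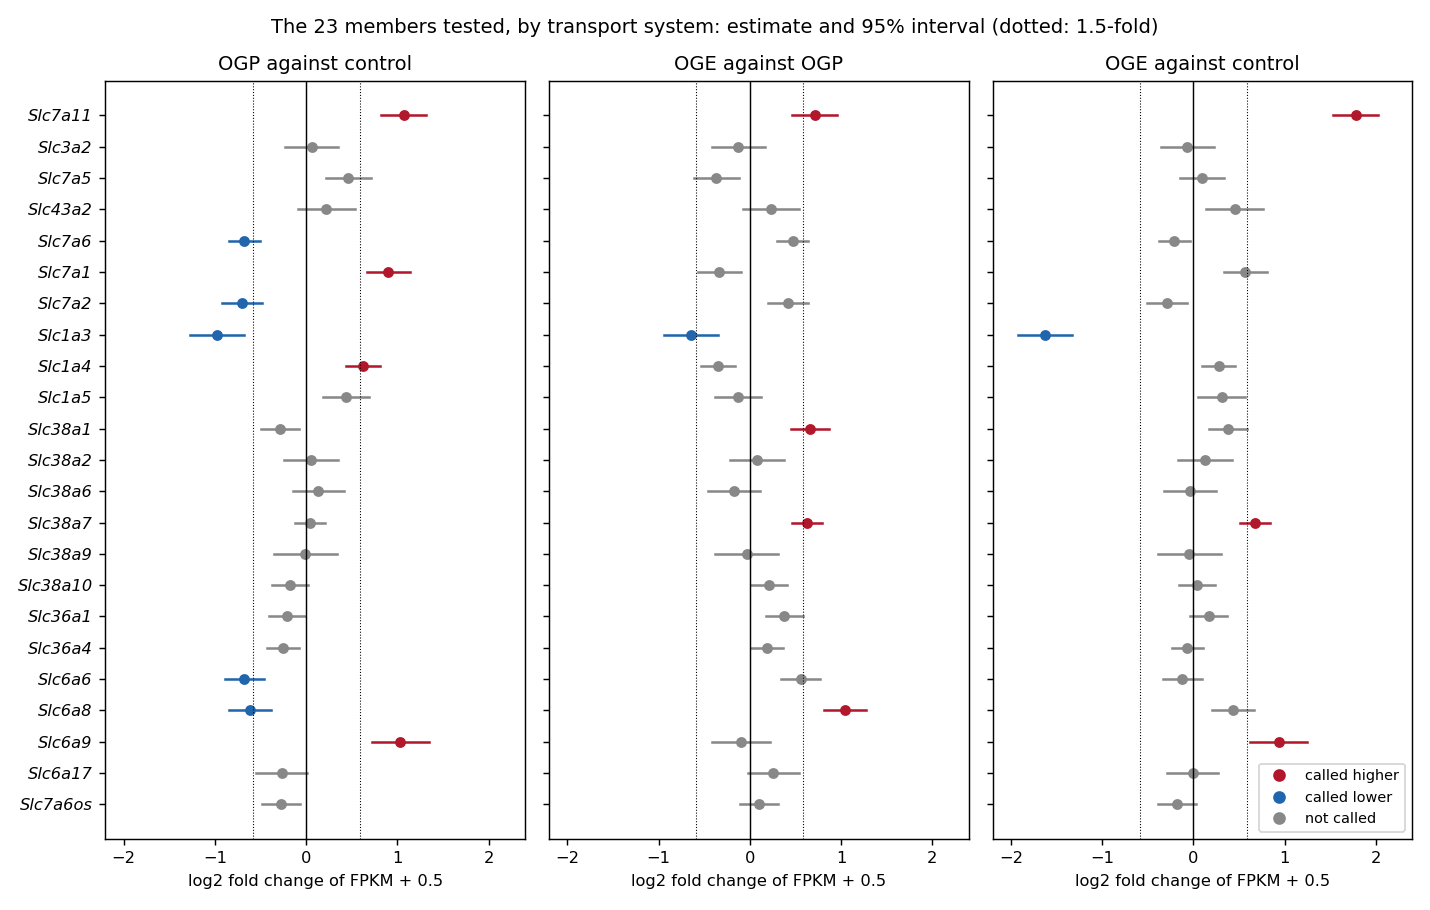
Log2 fold change of FPKM + 0.5 for the 23 genes tested (x axis), with the 95% interval of the limma fit, in OGP against control, OGE against OGP and OGE against control. Coloured points changed by 1.5-fold or more (dotted lines) at an adjusted p of 0.05 or less, and Slc7a11 and Slc1a3 are the genes called in all 3 panels.

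Slc7a11, the light chain that gives system xc- its cystine and glutamate transport, rose in every comparison. Its level was 9.31, 9.33 and 9.11 FPKM in the OGE libraries, 5.88, 5.36 and 5.17 FPKM in the OGP libraries, and 2.88, 2.07 and 2.14 FPKM in the control libraries. The 3 groups did not overlap, with OGE highest and control lowest. Its log2 fold change was 1.07 in OGP against control (SE 0.11, adjusted p = 0.000214, limma), 0.71 in OGE against OGP (SE 0.11, adjusted p = 0.00242, limma) and 1.78 in OGE against control (SE 0.11, adjusted p = 8.34e-06, limma). As plain ratios of the means these are 2.31-fold, 1.69-fold and 3.91-fold. The gene (ENSMUSG00000027737, chromosome 3 from 49892526 to 50443614 of mm10, minus strand) was counted with 1969 to 2313 reads in the OGE libraries, 1172 to 1620 in the OGP libraries and 489 to 700 in the control libraries.

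Slc3a2 (ENSMUSG00000010095, chromosome 19 from 8706882 to 8723369), which encodes the heavy chain 4F2hc that carries xCT and several other light chains to the cell surface, was called in no comparison. It stood at 57.2, 56.0 and 62.1 FPKM in OGE, 68.1, 57.1 and 66.8 FPKM in OGP, and 49.97, 69.6 and 66.0 FPKM in control, so that the groups overlapped. On the log2 scale the difference was 0.06 in OGP against control (95% interval -0.23 to 0.35), -0.13 in OGE against OGP (-0.42 to 0.16) and -0.07 in OGE against control (-0.36 to 0.22). These intervals leave room for differences of either sign but end short of the 1.5-fold limit of 0.58 in both directions.

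The heavy chain does not belong to xCT alone, since Slc3a2 also serves the large neutral amino acid carrier LAT1 (Slc7a5) and the y+L carriers y+LAT2 (Slc7a6) and y+LAT1 (Slc7a7). The light chains that pair with it summed to 93.9 ± 5.68 FPKM in OGE, 103 ± 12.5 FPKM in OGP and 86.4 ± 2.79 FPKM in control (SD, n = 3 each), or 1.61 ± 0.181, 1.61 ± 0.0871 and 1.42 ± 0.236 times the level of Slc3a2 in the same order. Slc7a11 made up 9.87% ± 0.481 of that sum in OGE, 5.34% ± 0.475 in OGP and 2.74% ± 0.577 in control (SD, n = 3 each). Slc7a5 was the largest light chain in all 9 libraries, with 67.7% ± 0.949 of the sum in OGE, 79.9% ± 1.24 in OGP and 68.9% ± 2.53 in control. Slc7a6 made up 22.2% ± 0.559 in OGE, 14.6% ± 0.751 in OGP and 28.0% ± 1.98 in control. Slc7a7 and Slc7a8 held under 1% each in all 9 libraries, and Slc7a10 was at 0. These shares are descriptions and were not tested.

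**Figure D2:**
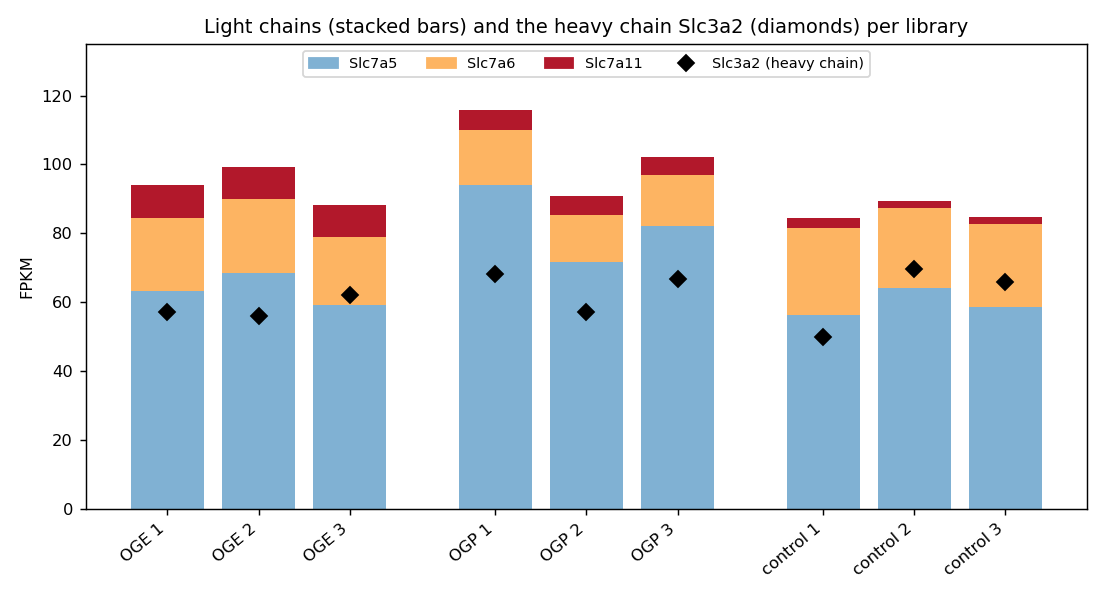
FPKM (y axis) of the light chains Slc7a5, Slc7a6 and Slc7a11 as stacked bars and of their heavy chain Slc3a2 as diamonds, for each of the 9 libraries (x axis). The Slc7a11 segment is 9.11 to 9.33 FPKM in OGE, 5.17 to 5.88 FPKM in OGP and 2.07 to 2.88 FPKM in control, while the diamonds of the 3 groups overlap.

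Slc7a5, the main carrier of leucine and other large neutral amino acids into dividing cells, had 63.3, 68.5 and 59.1 FPKM in OGE, 93.9, 71.5 and 82.0 FPKM in OGP, and 56.2, 64.0 and 58.6 FPKM in control. The OGP libraries lay above those of both other groups. The log2 fold change of 0.46 in OGP against control (SE 0.11, adjusted p = 0.0128, limma) and of -0.37 in OGE against OGP (SE 0.11, adjusted p = 0.0435, limma) passed the p threshold but were under 1.5-fold. Slc7a6, which exchanges cationic for neutral amino acids, fell in OGP. It had 21.2, 21.5 and 19.9 FPKM in OGE, 16.0, 13.9 and 14.98 FPKM in OGP, and 25.3, 23.3 and 24.0 FPKM in control, with no overlap between any of the groups. This was a log2 fold change of -0.68 in OGP against control (SE 0.076, adjusted p = 0.000313, limma). In OGE against OGP it was 0.47 (SE 0.076, adjusted p = 0.00293, limma), under the fold threshold, and in OGE against control -0.21 (adjusted p = 0.0752). Slc43a2, a system L carrier that needs no heavy chain, was low, at 0.966 to 1.35 FPKM in OGE, 0.844 to 1.02 FPKM in OGP and 0.627 to 0.755 FPKM in control. It was called in no comparison as fitted, but in OGE against control (0.45, adjusted p = 0.0406) it passed both thresholds with a pseudocount of 0.1 (0.63) and with voom on the recovered reads (0.72).

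**Figure D3:**
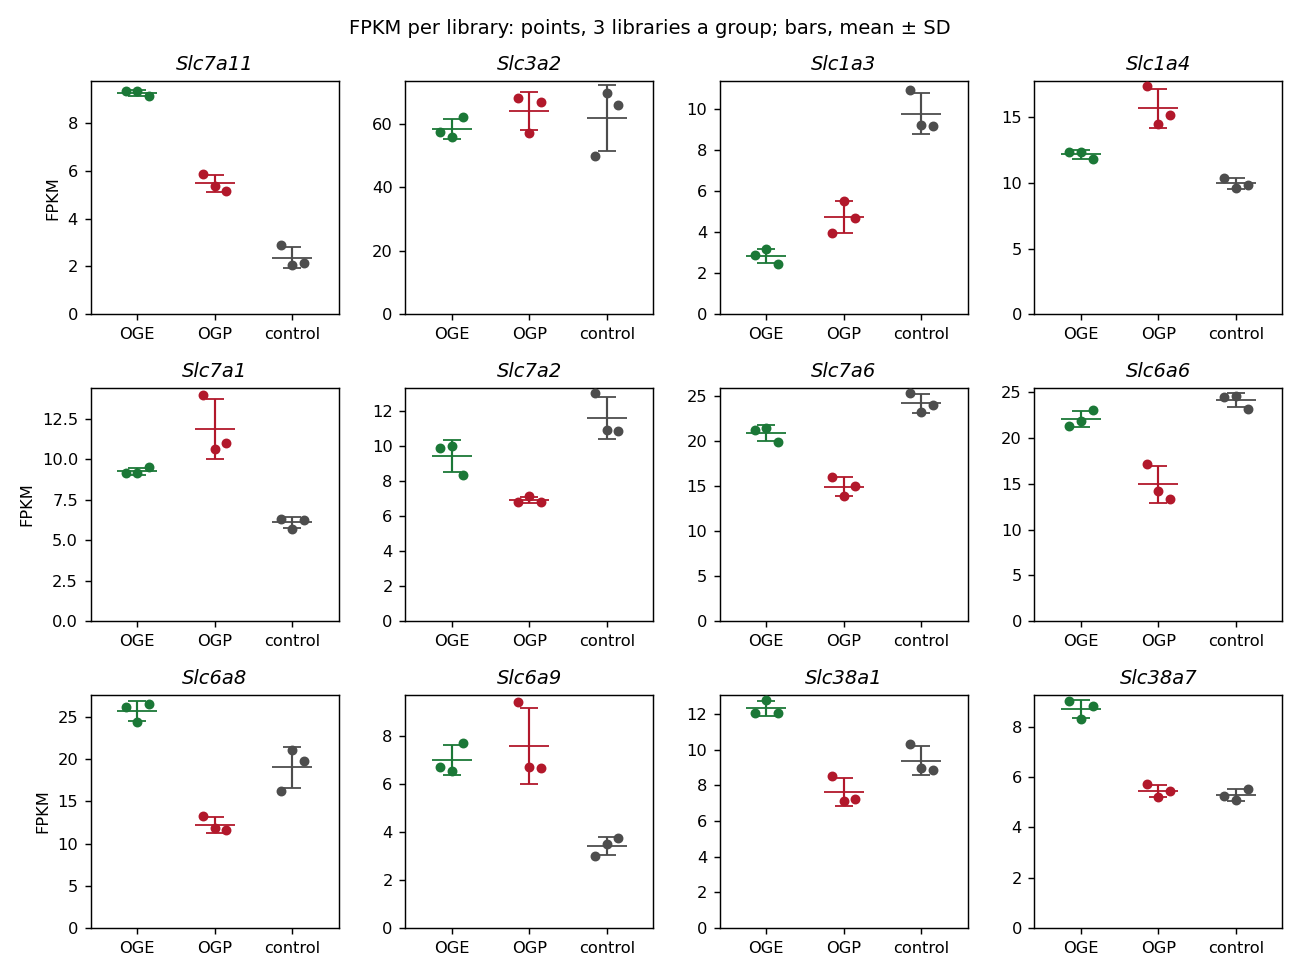
FPKM (y axes, each from 0) of 12 transporter genes in each library (points), with the mean and SD of the 3 OGE, 3 OGP and 3 control libraries. Slc7a11 is ordered OGE, OGP, control from high to low and Slc1a3 the other way round, while Slc7a6, Slc6a6 and Slc7a2 are lowest in OGP and Slc7a1 and Slc1a4 are highest there.

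The glutamate carriers of family 1, which take glutamate up against its gradient with sodium, came down to a single gene in these cells. Slc1a3 (ENSMUSG00000005360, chromosome 15 from 8634124 to 8710764), which encodes EAAT1, known in brain as the glutamate carrier GLAST of astrocytes, fell in every comparison. It had 2.89, 3.17 and 2.46 FPKM in OGE, 3.98, 5.54 and 4.71 FPKM in OGP, and 10.9, 9.22 and 9.19 FPKM in control. The order of the groups was the reverse of that of Slc7a11, again with no overlap. Its log2 fold change was -0.98 in OGP against control (SE 0.13, adjusted p = 0.000830, limma), -0.64 in OGE against OGP (SE 0.13, adjusted p = 0.00909, limma) and -1.62 in OGE against control (SE 0.13, adjusted p = 3.88e-05, limma). The control mean was 2.06 times that of OGP and 3.44 times that of OGE. The call in OGE against OGP was lost without OGP replicate 2 (-0.54), without OGE replicate 3 (-0.56) and with a pseudocount of 1 (-0.57). Other astrocyte markers did not stand at a level near it: of 5 on the list only Aldoc averaged at least 0.5 FPKM and Aqp4 was at 0, with a summed level of 0.437 to 0.636 FPKM in OGE, 0.929 to 1.23 FPKM in OGP and 0.518 to 0.651 FPKM in control.

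The other glutamate carriers were at or near 0. Slc1a2 (EAAT2), the main glutamate carrier of the forebrain, had 21 reads over the 3 OGE libraries, 26 over the 3 OGP libraries and 32 over the 3 control libraries, and Slc1a7 had 6, 9 and 16. Slc1a1 (EAAT3), the carrier known from neurons, and Slc1a6 had a single read each over all 9 libraries. Of 26 glutamate receptor genes, the subunit gene Grik5 was the only one above the minimum of the test, at 13.1 ± 1.94 FPKM in OGE, 14.2 ± 1.51 FPKM in OGP and 15.3 ± 2.53 FPKM in control (SD, n = 3 each). It was called in no comparison, with a log2 fold change of -0.09 in OGP against control, -0.12 in OGE against OGP and -0.21 in OGE against control.

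Of the neutral amino acid exchangers of family 1, Slc1a4 (ASCT1), a carrier of serine, alanine and cysteine, rose in OGP. It had 12.4, 12.3 and 11.8 FPKM in OGE, 17.4, 14.5 and 15.2 FPKM in OGP, and 10.4, 9.64 and 9.86 FPKM in control, and the 3 groups did not overlap. The log2 fold change was 0.62 in OGP against control (SE 0.082, adjusted p = 0.000706, limma), which fell under the fold threshold without OGP replicate 1 (0.55). In OGE against OGP it was -0.35 (adjusted p = 0.0169) and in OGE against control 0.28 (adjusted p = 0.0357), neither of them 1.5-fold. Slc1a5 (ASCT2), the glutamine carrier of many dividing cells, had 18.3, 18.9 and 19.7 FPKM in OGE, 23.4, 18.5 and 20.7 FPKM in OGP, and 13.2, 16.9 and 15.8 FPKM in control. Its log2 fold changes were 0.43 (adjusted p = 0.0182), -0.13 and 0.31 in the same order of comparisons, and it was not called.

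Both cationic amino acid carriers that were tested were called in OGP against control, in opposite directions. Slc7a1 (CAT1), which brings in arginine and lysine, rose and had 9.17, 9.13 and 9.51 FPKM in OGE, 14.0, 10.6 and 11.03 FPKM in OGP, and 6.34, 5.71 and 6.25 FPKM in control. The groups did not overlap and OGP was highest, with a log2 fold change of 0.90 in OGP against control (SE 0.10, adjusted p = 0.000378, limma). In OGE against control it was 0.57 (SE 0.10, adjusted p = 0.00422, limma), just under the fold threshold of 0.58, and it passed that threshold with a pseudocount of 0.1 (0.60), with voom on the recovered reads (0.64) and without control replicate 1 (0.59). Slc7a2 (CAT2), the other arginine carrier, fell and had 9.90, 10.0 and 8.37 FPKM in OGE, 6.80, 7.14 and 6.82 FPKM in OGP, and 13.0, 10.9 and 10.9 FPKM in control. OGP was the lowest group here, with a log2 fold change of -0.70 against control (SE 0.097, adjusted p = 0.000921, limma). Between OGE and OGP it was 0.42 (adjusted p = 0.0163). Slc7a3 (CAT3) stayed under the minimum with 102 reads over the OGE libraries, 116 over the OGP libraries and 42 over the control libraries.

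Family 38 carries glutamine and other small neutral amino acids. Slc38a2 (SNAT2) had the highest level of all 64 genes, at 123, 129 and 108 FPKM in OGE, 114, 113 and 114 FPKM in OGP, and 137, 97.5 and 98.4 FPKM in control. Its groups overlapped, control replicate 1 was its highest library, and the log2 fold change was 0.05 in OGP against control (95% interval -0.25 to 0.35), 0.08 in OGE against OGP (-0.22 to 0.37) and 0.13 in OGE against control (-0.17 to 0.43). Slc38a1 (SNAT1), the other system A carrier tested, rose in OGE against OGP. It had 12.1, 12.8 and 12.1 FPKM in OGE, 8.51, 7.12 and 7.27 FPKM in OGP, and 10.3, 8.997 and 8.87 FPKM in control, and OGE lay above both other groups. Slc38a1 changed by a log2 fold of 0.66 (SE 0.091, adjusted p = 0.00128, limma) in OGE against OGP. It changed by 0.38 (SE 0.091, adjusted p = 0.0157, limma) in OGE against control. In OGP against control it changed by -0.28 (SE 0.091, adjusted p = 0.0428, limma), with OGP below control. Both values against control were under the fold threshold.

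Slc38a7 (SNAT7), which lets glutamine out of lysosomes, was higher in OGE than in both other groups. It had 9.01, 8.31 and 8.80 FPKM in OGE, 5.70, 5.20 and 5.43 FPKM in OGP, and 5.25, 5.08 and 5.53 FPKM in control. The OGP and control libraries overlapped, and all 3 OGE libraries lay above them. Its log2 fold change was 0.63 in OGE against OGP (SE 0.073, adjusted p = 0.000440, limma), 0.67 in OGE against control (SE 0.073, adjusted p = 0.000227, limma) and 0.04 in OGP against control (95% interval -0.13 to 0.20). Among the 64 genes, Slc38a9, Slc36a1 and Slc36a4 were also tested and were not called. Slc38a9, the arginine sensor of the lysosome, averaged 0.570 FPKM in OGE, 0.597 FPKM in OGP and 0.610 FPKM in control, and its log2 fold changes were between -0.05 and -0.01. Slc36a1, which moves small amino acids with protons, and Slc36a4 had 4.78 ± 0.231 and 4.04 ± 0.242 FPKM in OGE. They had 3.56 ± 0.152 and 3.48 ± 0.115 FPKM in OGP. In control they had 4.21 ± 0.414 and 4.25 ± 0.0785 FPKM (SD, n = 3 each). In OGE against OGP the log2 fold change was 0.38 for Slc36a1 (adjusted p = 0.0174, limma) and 0.19 for Slc36a4 (adjusted p = 0.112, limma). Those groups did not overlap for either gene, as was so for 45.4% of all genes tested. Slc38a10, a carrier of family 38 at 34.3 ± 1.61 FPKM in OGE, 29.5 ± 2.22 FPKM in OGP and 33.5 ± 2.77 FPKM in control, had log2 fold changes of -0.18 in OGP against control, 0.21 in OGE against OGP and 0.04 in OGE against control. Slc38a6 stood at 1.47 to 1.97 FPKM in the OGE and OGP libraries and at 1.33 to 1.89 FPKM in the control libraries.

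Family 6 takes up its substrates with sodium and chloride. Slc6a8, the creatine carrier, fell in OGP against control and rose in OGE against OGP. It had 26.2, 24.4 and 26.6 FPKM in OGE, 13.3, 11.8 and 11.5 FPKM in OGP, and 16.3, 21.04 and 19.7 FPKM in control, so that OGE was highest, OGP lowest and no groups overlapped. Between OGE and OGP its log2 fold change was 1.05 (SE 0.10, adjusted p = 0.000166, limma), a ratio of 2.105. It was -0.61 in OGP against control (SE 0.10, adjusted p = 0.00256, limma), a call lost under quantile normalization (-0.56), without control replicate 2 (-0.54), without control replicate 3 (-0.58) and without OGP replicate 3 (-0.58). In OGE against control it was 0.43 (SE 0.10, adjusted p = 0.0148, limma), under the fold threshold.

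Slc6a6, the taurine carrier, fell in OGP. It had 21.4, 21.9 and 23.1 FPKM in OGE, 17.2, 14.3 and 13.4 FPKM in OGP, and 24.5, 24.6 and 23.2 FPKM in control. OGP was again the lowest group, and OGE lay just under control. The log2 fold change was -0.68 in OGP against control (SE 0.094, adjusted p = 0.000976, limma), 0.56 in OGE against OGP (SE 0.094, adjusted p = 0.00380, limma) and -0.12 in OGE against control (adjusted p = 0.385). The difference between OGE and OGP passed the fold threshold with voom on the recovered reads (0.59) and without OGP replicate 1 (0.66).

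Slc6a9 (GlyT1), which takes up glycine, rose in OGP and in OGE against control. It had 6.68, 6.55 and 7.70 FPKM in OGE, 9.39, 6.68 and 6.66 FPKM in OGP, and 3.01, 3.50 and 3.76 FPKM in control, with OGE and OGP overlapping and both above control. Its log2 fold change was 1.03 in OGP against control (SE 0.14, adjusted p = 0.000850, limma), 0.93 in OGE against control (SE 0.14, adjusted p = 0.00139, limma) and -0.10 in OGE against OGP (95% interval -0.41 to 0.22). Of its exon bases, 27.8% are shared with the antisense gene Ccdc24, at 0.0804 FPKM in OGE, 0.177 FPKM in OGP and 0.0547 FPKM in control, and 0.9% with B4galt2, at 8.15 FPKM in OGE, 9.58 FPKM in OGP and 8.87 FPKM in control. Reads of such overlapping genes cannot be told apart without strand. Slc6a17, a vesicular carrier of neutral amino acids in neurons, had 2.53 ± 0.351 FPKM in OGE, 2.03 ± 0.273 FPKM in OGP and 2.54 ± 0.225 FPKM in control (SD, n = 3 each) and was not called. Slc7a6os, the gene that matches by name only, had 14.4 ± 0.313 FPKM in OGE, 13.5 ± 1.23 FPKM in OGP and 16.5 ± 1.69 FPKM in control and was not called.

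Below the minimum of the test were 41 genes, of which 28 had some reads and 13 had none in any library. Those at 0 were Slc36a3, Slc38a5, Slc43a1, Slc6a3, Slc6a14, Slc6a15, Slc6a16, Slc6a18, Slc6a20a, Slc7a9, Slc7a10, Slc7a12 and Slc7a14. Reads of 0 allow a share of up to 1.54e-05% to 2.00e-05% of the reads of a library (3 reads, for counting error only). The carriers Slc6a11 and Slc6a13 for GABA, and those for noradrenaline (Slc6a2) and serotonin (Slc6a4), which neurons and glia use, had between 1 and 71 reads over the 9 libraries. The system A carrier Slc38a4 averaged 0.367 FPKM over the 9 libraries, with 42 reads in OGE, 136 in OGP and 67 in control (3 libraries each). The heavy chain rBAT (Slc3a1) had 37 reads in OGE, 20 in OGP and 8 in control, with its OGE libraries at 0.307 to 0.333 FPKM, above those of OGP at 0.153 to 0.186 FPKM and of control at 0.0466 to 0.102 FPKM. Its usual light chain, Slc7a9, was at 0.

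Promoters were looked up for sequence that the choice of genes did not use. RefSeq gave 46 of the 64 genes at least 1 promoter, taken as the 250 bases before and 50 bases after a start of transcription on GRCm38.p6 (mm10), and the other 18 were not searched. Of the 11 genes called in a comparison, 7 had a promoter. The C/EBP-ATF response element (CARE), searched as TGATGNAA on both strands, was in 3.97% of 32851 promoters and in 5 of the 67 promoters of the 46 genes, those of Slc7a11, Slc1a4, Slc7a7 and Slc6a21. Among the genes called in a comparison it was in those of Slc7a11 and Slc1a4. The promoter of Slc7a11, added after the values of the gene were seen, is shown whole. It holds 2 matches, on opposite strands, whose first bases lie 66 and 47 bases before the start of the gene. Capitals mark the matches in all sequences here.
Slc7a11, chr3:50443564-50443863, minus strand: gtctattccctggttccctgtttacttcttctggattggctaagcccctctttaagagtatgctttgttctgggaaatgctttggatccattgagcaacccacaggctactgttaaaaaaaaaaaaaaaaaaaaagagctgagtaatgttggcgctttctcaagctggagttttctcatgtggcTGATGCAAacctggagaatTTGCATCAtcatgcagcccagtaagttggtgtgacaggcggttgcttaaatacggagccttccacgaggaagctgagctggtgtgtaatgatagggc
Slc1a4, 60 bases at chr11:20332684-20332743, minus strand: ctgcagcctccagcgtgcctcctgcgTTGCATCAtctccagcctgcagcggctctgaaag

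The antioxidant response element core (ARE), searched as TGACNNNGC, was in 12.39% of all promoters and in 11 of the 67 and, among the called genes, in those of Slc7a1, Slc7a6 and Slc6a9, the last at both of its start sites. The E-box CACGTG was in 7.15% of all promoters and in 9 of the 67 and, among the called genes, in that of Slc38a7. The 60 bases around each match are given for these genes, each on the strand of the gene. The matches of Slc1a4 and Slc7a1 lie on the strand opposite to the gene. No gene called in a comparison held matches of more than 1 of the 3 motifs. A match of letters is not a binding site.
Slc7a1, chr5:148399882-148399941, minus strand: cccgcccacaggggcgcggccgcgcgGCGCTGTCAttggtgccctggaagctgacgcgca
Slc7a6, chr8:106168827-106168886, plus strand: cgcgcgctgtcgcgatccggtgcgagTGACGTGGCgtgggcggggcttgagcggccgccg
Slc6a9, chr4:117849278-117849337, plus strand: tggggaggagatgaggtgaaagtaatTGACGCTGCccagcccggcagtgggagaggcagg
Slc6a9, second start, chr4:117855476-117855535, plus strand: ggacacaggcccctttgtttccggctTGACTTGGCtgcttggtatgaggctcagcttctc
Slc38a7, chr8:95853493-95853552, minus strand: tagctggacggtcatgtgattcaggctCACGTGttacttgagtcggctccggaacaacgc

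A list of glutathione genes was read beside system xc-, with 14 of 17 tested. Beside genes that make cysteine and glutathione, it holds genes that use, break down or export glutathione, Txn1 and Txnrd1 of the thioredoxin system, and Nfe2l2 and Keap1. Its counts are therefore not those of a route of synthesis. In OGP against control 2 rose and 1 fell (21.4%, beside 12.1% of all genes tested), in OGE against OGP 2 rose and 2 fell (28.6%, beside 8.12%), and in OGE against control 1 rose and 2 fell (21.4%, beside 11.5%), with medians of -0.05, -0.002 and 0.08. Cth, which makes cysteine from cystathionine, had 15.2, 12.9 and 12.9 FPKM in OGE, 15.5, 17.1 and 16.9 FPKM in OGP, and 4.99, 4.73 and 5.38 FPKM in control. It rose in OGP (1.62, SE 0.089, adjusted p = 8.08e-06, limma) and in OGE against control (1.35, SE 0.089, adjusted p = 1.13e-05, limma). The cystathionine synthase gene Cbs, on the same list, was too low to test, at 0.0120 FPKM in OGE, 0.0244 FPKM in OGP and 0.0235 FPKM in control. Gpx4, the glutathione peroxidase that repairs oxidized membrane lipids, was highest in OGP, at 210 ± 10.4 FPKM in OGE, 332 ± 29.1 FPKM in OGP and 211 ± 23.1 FPKM in control (SD, n = 3 each). Against control it rose in OGP (0.65, adjusted p = 0.00199), and it fell in OGE against OGP (-0.65, adjusted p = 0.00273). Gpx1, the peroxidase of the cytosol, fell in OGP (-0.75, adjusted p = 0.00158) and in OGE (-1.13, adjusted p = 0.000152) against control.

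In OGE against OGP the thioredoxin reductase gene Txnrd1 rose (0.66, SE 0.072, adjusted p = 0.000307, limma), with 64.8 ± 2.06 FPKM in OGE, 40.9 ± 2.12 FPKM in OGP and 54.9 ± 2.604 FPKM in control (SD, n = 3 each). Abcc1, an exporter of glutathione and its conjugates, rose too (0.67, adjusted p = 0.00170), with 12.5 ± 0.566 FPKM in OGE, 7.73 ± 1.09 FPKM in OGP and 11.5 ± 0.418 FPKM in control. Against control, OGP had a log2 fold change of -0.42 for Txnrd1 (adjusted p = 0.00276) and -0.55 for Abcc1 (adjusted p = 0.00315), and OGE had 0.24 for Txnrd1 (adjusted p = 0.0400) and 0.11 for Abcc1 (adjusted p = 0.431), none of them 1.5-fold. In OGE against OGP Chac1, which breaks glutathione down, fell (-0.95, adjusted p = 0.00121). The genes of glutathione synthesis itself were singled out after their values were seen. Gclc, the catalytic subunit of the first enzyme, had 21.5 ± 0.488 FPKM in OGE, 14.8 ± 0.980 FPKM in OGP and 15.6 ± 1.54 FPKM in control (SD, n = 3 each), and its log2 fold change of 0.52 in OGE against OGP (adjusted p = 0.00350) was under the fold threshold. Gsr, which regenerates glutathione, likewise had 0.51 (adjusted p = 0.00309), while Gclm (0.23) and Gss (-0.11) did not pass the p threshold. Gclc, Gclm, Gss and Gsr were called in no comparison.

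**Figure D4:**
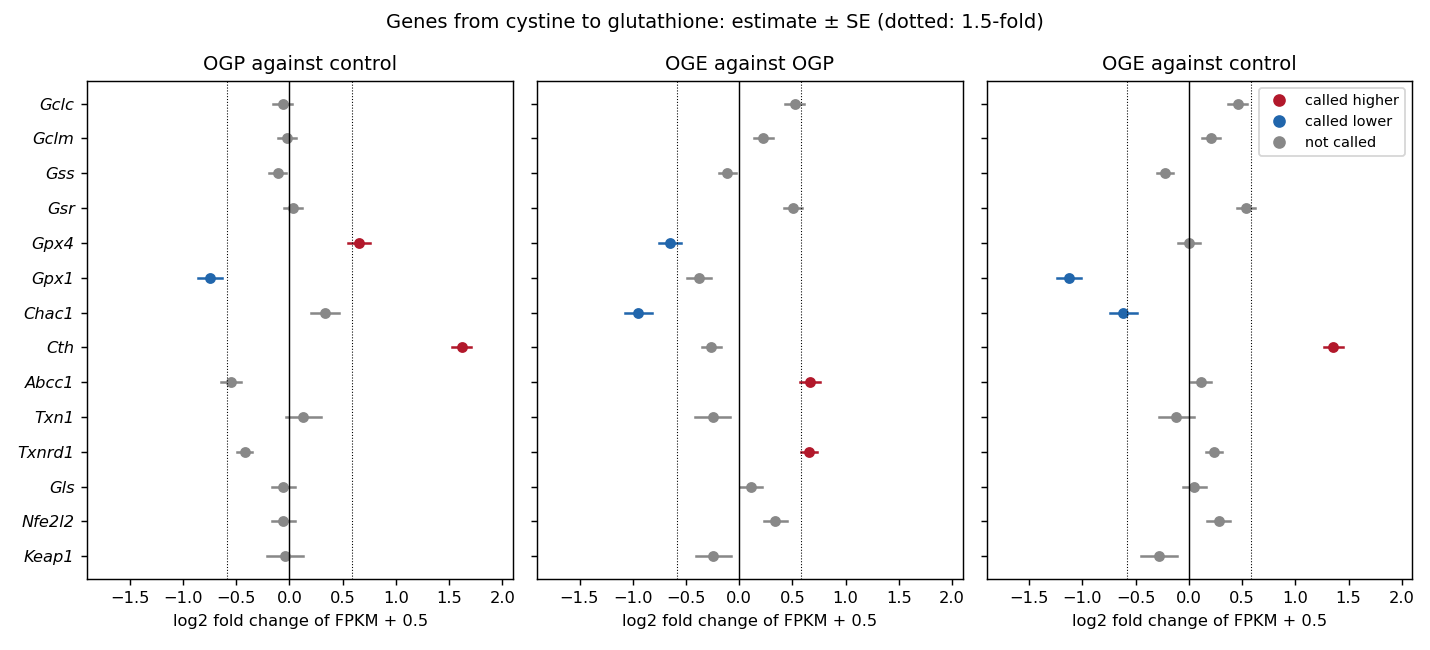
Log2 fold change of FPKM + 0.5 (x axis, points, with the SE as bars) of the 14 tested genes of the glutathione list. The panels show OGP against control, OGE against OGP and OGE against control. Coloured points changed by 1.5-fold or more (dotted lines) at an adjusted p of 0.05 or less. Cth is called higher in both comparisons with control, and Txnrd1 and Abcc1 are called higher and Chac1 and Gpx4 lower in OGE against OGP.

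ATF4 is a transcription factor that acts when amino acids are short and is known to drive many of the carriers above, Slc7a11 among them. Of a list of 20 genes around that response, all tested and none of them a carrier, 6 rose and 1 fell in OGP against control (35.0%, beside 12.1% of all genes, median 0.35), 1 rose and 3 fell in OGE against OGP (20%, beside 8.12%, median -0.21), and 4 rose and 2 fell in OGE against control (30%, beside 11.5%, median 0.26). Atf4 itself is one of the 20, as are Eif2ak4 and Eif2ak3, kinase genes upstream of it, so the counts are not those of ATF4 targets alone. Chac1 and Cth are also on the glutathione list. Atf4, named after its values were seen, had 233 ± 16.8 FPKM in OGE, 316 ± 8.38 FPKM in OGP and 184 ± 25.6 FPKM in control (SD, n = 3 each) and rose in OGP against control (0.79, adjusted p = 0.00106). Trib3, a pseudokinase gene, had 23.4 ± 3.72 FPKM in OGE, 44.3 ± 3.34 FPKM in OGP and 14.9 ± 1.64 FPKM in control (SD, n = 3 each), so it was highest in OGP. Its log2 fold change was 1.54 in OGP against control (adjusted p = 6.74e-05, limma), -0.92 in OGE against OGP (adjusted p = 0.00120, limma) and 0.62 in OGE against control (adjusted p = 0.00665, limma). Nupr1, a stress-induced chromatin factor, rose against control in OGP (1.37) and in OGE (0.94). Ddit4, also named after its values were seen, went the other way and fell against control in OGP (-1.11, adjusted p = 0.00382, limma) and in OGE (-0.80, adjusted p = 0.0194, limma). Chac1 fell in OGE against control as well (-0.61, adjusted p = 0.00825, limma). Vegfa, the angiogenic growth factor, was the one that rose in OGE against OGP (0.94, adjusted p = 0.000125).

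Amino acids that leave lysosomes are sensed there by the machinery of mTORC1, the kinase complex that controls growth, and its 33 genes on the list were all tested. In OGP against control the single gene called was lower (3.03%, beside 12.1% of all genes tested), in OGE against OGP 3 rose and 2 fell (15.2%, beside 8.12%), and in OGE against control 3 rose and 1 fell (12.1%, beside 11.5%). Fnip2, a partner of folliculin, had 8.95, 8.64 and 9.13 FPKM in OGE, 2.91, 2.77 and 2.59 FPKM in OGP, and 3.39, 3.17 and 3.38 FPKM in control. It rose in OGE against OGP (1.53, SE 0.075, adjusted p = 4.14e-06, limma) and against control (1.30, SE 0.075, adjusted p = 6.59e-06, limma). Flcn, folliculin itself, rose in both as well (0.91 and 1.15). Sesn2, a leucine sensor, fell in OGE against OGP (-0.80) and is also counted among the 20 genes of the ATF4 list. Tfeb, a factor for lysosome genes, fell in OGP (-0.95) and in OGE (-1.14) against control.

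Of the amino acid carriers of other SLC families and of the lysosome, 11 of 17 were tested. In OGP against control 1 fell (9.09%, beside 12.1% of all genes tested), and in OGE against OGP 1 rose (9.09%, beside 8.12%). In OGE against control 3 fell (27.3%, beside 11.5%). Ctns, which exports cystine from lysosomes, rose in OGE against OGP (0.60, SE 0.11, adjusted p = 0.00455, limma), with 6.78, 5.71 and 6.61 FPKM in OGE, 3.63, 3.996 and 4.51 FPKM in OGP, and 6.22, 5.25 and 5.55 FPKM in control. Slc15a4, a lysosomal carrier of histidine and small peptides, was the one that fell in OGP against control (-0.80, adjusted p = 0.00102). The 3 that fell in OGE against control were the mitochondrial carriers Slc25a22 for glutamate (-0.90), Slc25a12 for aspartate and glutamate (-0.65) and Slc25a15 for ornithine (-0.59).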

How the data were processed

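The authors sequenced poly(A)-selected RNA in paired ends, aligned the reads with HISAT2 2.0.5 to mm10 and counted them per gene. From such counts the authors made FPKM, which they deposited as a table of 54532 gene IDs, with a tool not given in the sources used here. Strandedness is not stated. FPKM times gene length gave whole reads within 0.1 for 100% of values, and these reads give the depth. Reads were not used for the main test. The methods name DESeq2 on counts, which were not used here.

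The 13245 genes averaging 0.5 FPKM or more entered limma 3.58.1 (R 4.3.3, trended prior variance) as log2(FPKM + 0.5), all 9 libraries in 1 model of 3 groups, with Benjamini-Hochberg adjustment over all genes tested. Libraries are called biological replicates, not stated to be separate cultures, so p-values reflect only the spread among them, which may be technical. Depth limits low genes most, and at a given FPKM short genes rest on fewer reads. Of the 23 transporter genes tested, Slc38a9 was lowest (0.593 FPKM, 16704 bases) and had 137 to 229 reads per library. Slc43a2 (0.928 FPKM, 10042 bases) had 110 to 210.

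Named with full values are Slc7a11, Slc3a2 and every transporter called in a comparison, with level and test those averaging at least 10 FPKM, and of each pathway list up to 3 called genes with the smallest p per comparison. Promoter sequence follows a rule of at most 5 called genes with a match by level, and Slc7a11 was added after its values were seen. Members and lists were chosen with earlier results of these data known. Alternatives were other pseudocounts, filters, folds, scalings, prior variances, subsets of genes and libraries, a replicate block and voom. The animal and cell assays were not analysed here. Another gene under the minimum is not reported here.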

Additional observations from a re-analysis of the deposited data

How the results depend on the processing

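Of the 18 calls of transporter genes, 5 were kept in all 23 alternatives (Slc7a11 in OGP and in OGE against control, Slc1a3 in OGE against control, Slc6a9 in OGP against control and Slc6a8 in OGE against OGP) and 13 were lost in at least 1, with 0 reversed. A fold threshold of 2 was the only alternative that ended 10 of the 13, and the other 3 were Slc6a8 and Slc1a4 in OGP against control and Slc1a3 in OGE against OGP. In OGP against control a fold threshold of 2 left 2 genes higher and 0 lower, and no fold threshold gave 8 lower. In OGE against OGP no fold threshold gave 8 higher and 3 lower, and a fold threshold of 2 gave 1 higher and 0 lower. The single gene lower there, Slc1a3, was lost with a pseudocount of 1 and without both control replicate 1 and OGE replicate 3 (0 genes each), leaving out each library in turn gave 0 to 1, and with no filter on low values it was joined by Slc38a4 (2 genes, -0.68 for Slc38a4). In OGE against control 5 genes were higher with a pseudocount of 0.1 and with voom on the recovered reads, where Slc7a1 and Slc43a2 were added, 8 with no fold threshold and 1 with a fold threshold of 2. Over all genes, no fold threshold gave 3941, 2750 and 3287 calls in the comparisons as ordered here, and a fold threshold of 2 gave 436, 393 and 530. For all genes in OGE against control, a pseudocount of 0.1 gave 1720 calls and voom 1838, beside 1519 as fitted.

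Reversals touched uncalled differences alone. Under quantile normalization Slc3a2 turned to 0.034 in OGE against OGP and to 0.068 in OGE against control. With 1 library or both control replicate 1 and OGE replicate 3 left out, Slc3a2 ran between -0.086 and 0.15 in OGP against control and between -0.26 and 0.023 in OGE against control, Slc38a2 between -0.032 and 0.21 in OGP against control, Slc6a9 between -0.18 and 0.057 in OGE against OGP, and Slc38a10 between -0.068 and 0.071 in OGE against control. The sign of Slc3a2 turned without control replicate 1 (-0.086) or control replicate 2 (0.023), that of Slc38a2 without control replicate 2 or 3 (-0.025 for the third), that of Slc6a9 without OGP replicate 1 (0.057) and that of Slc38a10 without control replicate 1 (-0.034). Scaling moved the median of all genes by under 0.1. The cause of these changes was not tested.

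Replicate numbers did not pair the libraries, since deviations of libraries with the same number correlated at -0.18 to 0.32, over 0.1 in 2 of 9 pairs, and 3 of 9 libraries correlated best with their own number. With a replicate block 4 genes were higher and 5 lower in OGP against control, 4 higher and 1 lower between OGE and OGP, and 3 higher and 1 lower in OGE against control, the counts found without it. The block gave 1581, 1043 and 1484 calls over all genes, beside 1605, 1075 and 1519 without it.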
